A study of Mus musculus with 12 samples.

Results

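Molar germs of young mice differed widely in how much enamel messenger RNA their libraries held, and the libraries richest in it are set here against the poorest. The high side was selected on measured values, as the libraries with 70000 RPKM or more of Amelx, and the low side as those with 50000 RPKM or less, where RPKM is a read count scaled to gene length and library size. These limits took 9 of 12 libraries, 5 high and 4 low, and left 3 between them. Because Amelx chose the sides, every value below that sets one side against the other is a description with no test, and Amelx itself is no finding.

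The study sequenced RNA from the apical, root-forming end of lower first molar germs, cut from mice of strain C57BL/6 on postnatal day 4. It compared 6 Nfic-/- mice (null) with 6 littermate Nfic+/- controls (heterozygous), so the controls also carry 1 deleted copy of Nfic. Nfic encodes a nuclear factor I transcription factor that molar roots need in order to form. The libraries are numbered 5 to 10 in each genotype, and nothing states whether a library came from 1 germ or from several, or what sex the mice were. The high side held heterozygous 5, null 5, null 6, null 7 and null 8. The low side held heterozygous 6, heterozygous 10, null 9 and null 10. Heterozygous 7, 8 and 9 lay between. The sides therefore differed in genotype, with 4 of 5 high and 2 of 4 low libraries null, and no difference between them can be told apart from genotype except within one genotype.

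Enamel is laid down by ameloblasts, epithelial cells that secrete a protein matrix and later remove it while mineral replaces it. Amelogenin (Amelx) makes up most of that matrix, ameloblastin (Ambn) and enamelin (Enam) are its other structural proteins, and the protease Mmp20 processes them. Opposite the ameloblasts stand the odontoblasts, which make dentin and derive from the dental papilla, and the dental follicle surrounds the germ and gives rise to the periodontal ligament. In a molar germ the oldest ameloblasts lie towards the cusps and the youngest epithelium at the apical loop. In bulk tissue, fewer cells of a type and less RNA per cell cannot be told apart.

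The 250 bases before the transcription start are shown for the 3 structural enamel matrix genes, of which Amelx set the sides. They come from RefSeq on GRCm38.p6, for Amelx at chrX:169187210-169187459 on the minus strand, for Ambn at chr5:88455741-88455990 and for Enam at chr5:88487725-88487974, both on the plus strand. Each reads 5′ to 3′ towards the start, and capitals mark the letters CCAAT on either strand (ATTGG on the other).

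Amelx: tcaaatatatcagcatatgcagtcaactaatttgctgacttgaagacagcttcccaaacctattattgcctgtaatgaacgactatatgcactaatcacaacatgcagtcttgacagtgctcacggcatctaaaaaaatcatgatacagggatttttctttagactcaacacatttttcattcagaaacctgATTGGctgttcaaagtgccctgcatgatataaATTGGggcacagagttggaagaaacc

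Ambn: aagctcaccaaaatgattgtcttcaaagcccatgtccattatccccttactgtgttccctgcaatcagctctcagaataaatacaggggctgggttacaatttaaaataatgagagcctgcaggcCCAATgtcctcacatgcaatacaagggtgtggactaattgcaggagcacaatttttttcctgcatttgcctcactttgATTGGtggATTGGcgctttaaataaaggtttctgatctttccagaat

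Enam: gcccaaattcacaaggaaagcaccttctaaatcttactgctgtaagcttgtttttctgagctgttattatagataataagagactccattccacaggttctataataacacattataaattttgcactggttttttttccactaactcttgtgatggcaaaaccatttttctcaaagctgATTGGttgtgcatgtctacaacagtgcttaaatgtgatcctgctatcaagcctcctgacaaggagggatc

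The CCAAT letters occurred 2 times before Amelx, 26 and 58 bases from the start, 3 times before Ambn and 1 time before Enam, but were absent from the same window of Mmp20 and of Acp4, an acid phosphatase gene of enamel formation. In Amelx and in Ambn, 1 CCAAT match overlapped the letters TTGGC, which form a half-site of nuclear factor I proteins. Both motifs were chosen after these promoters had been read. CCAAT was present in 34.0% of the 144 promoters matched to genes higher on the high side, beside 34.5% of all 27025 promoters in the table, so it did not set these genes apart. TTGGC was present in 43.8% of those 144, in 41.9% of all promoters and in 45.5% of the promoters of the genes compared, where CCAAT was in 36.4%.

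**Figure D1:**
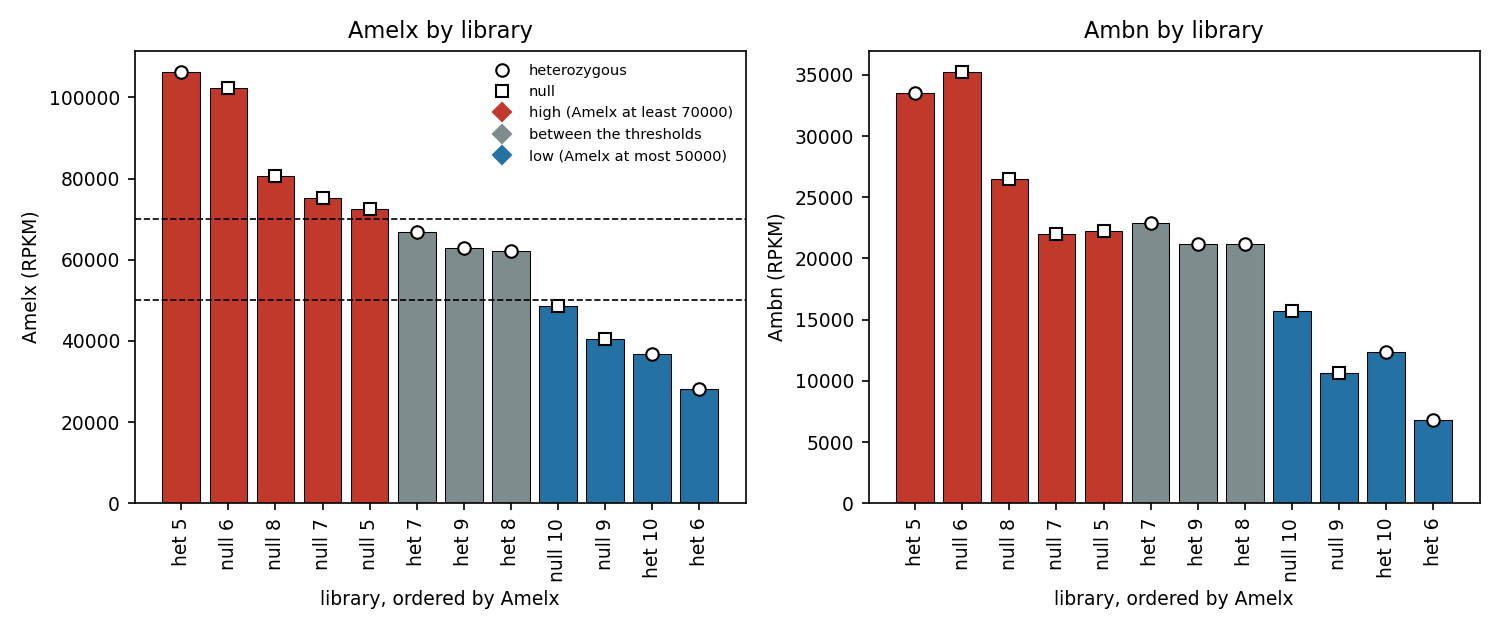
Amelx (left) and Ambn (right) in RPKM on linear axes in each of the 12 libraries, ordered by Amelx. Bar colour gives the side, the marker on each bar gives the genotype, and the dashed lines stand at 70000 and 50000 RPKM. Ambn falls into the same high and low sides, although heterozygous 7, between the Amelx limits, exceeds null 5 and null 7.

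Amelx (chrX:169176114-169187200, minus strand, mm10) set the sides. It stood at 106179 RPKM in heterozygous 5, 102366 in null 6, 80530 in null 8, 75097 in null 7 and 72467 in null 5. On the low side it stood at 48616 RPKM in null 10, 40547 in null 9, 36657 in heterozygous 10 and 28240 in heterozygous 6. The 3 libraries between had 66950, 62944 and 62038 RPKM in heterozygous 7, 9 and 8, so the upper limit passed through a narrow gap between null 5 and heterozygous 7, while the lower limit lay in a wide one. Heterozygous libraries stood at both ends of the range.

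Ambn (chr5:88455991-88468531) had no part in the rule. It measured 33502 RPKM in heterozygous 5, 35216 in null 6, 26523 in null 8, 21994 in null 7 and 22224 in null 5. In the low libraries it measured 15735 RPKM in null 10, 10665 in null 9, 12395 in heterozygous 10 and 6765 in heterozygous 6. The sides did not overlap, and the difference of their medians was 1.21 on the log2(RPKM + 1) scale, the scale of every difference below, beside 1.06 for Amelx. Together the Amelx and Ambn values made up 33.3% to 45.9% of the summed RPKM of a high library and 13.9% to 23.6% of a low one.

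RPKM divides by 1 read total per library, so very abundant transcripts enter the scale of every other gene. The share above is of summed RPKM and not of reads, and its part in the shift below was not tested. Over the 12094 genes that averaged at least 1 RPKM, the median difference between the sides was -0.26, and a gene was counted as higher or lower where the values of the 5 high and the 4 low libraries did not overlap. As deposited, 198 genes (1.64%) were higher and 5219 (43.2%) lower on the high side, so that 3.66% of the counted genes were higher. With each library scaled to its summed RPKM without Amelx, Ambn, Enam, Mmp20 and Dspp, 806 were higher and 1759 lower and the median difference was -0.08. With each library scaled to the median ratio over genes, 1320 (10.9%) were higher and 1133 (9.37%) lower, 53.8% of those counted, with a median difference of -0.01. Values were divided by factors under 1 in all high and over 1 in all low libraries, so the 198 genes higher as deposited were bound to stay higher under both rescalings. Of the lower genes 1133 were lower under all 3 scalings, the same number as under the median ratio alone. By the same factors, a gene lower after rescaling was bound to be lower as deposited. Another 62 genes lower as deposited turned higher under the median ratio. Gene groups are therefore given relative to the median of all genes, a choice made after this shift had been seen.

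**Figure D2:**
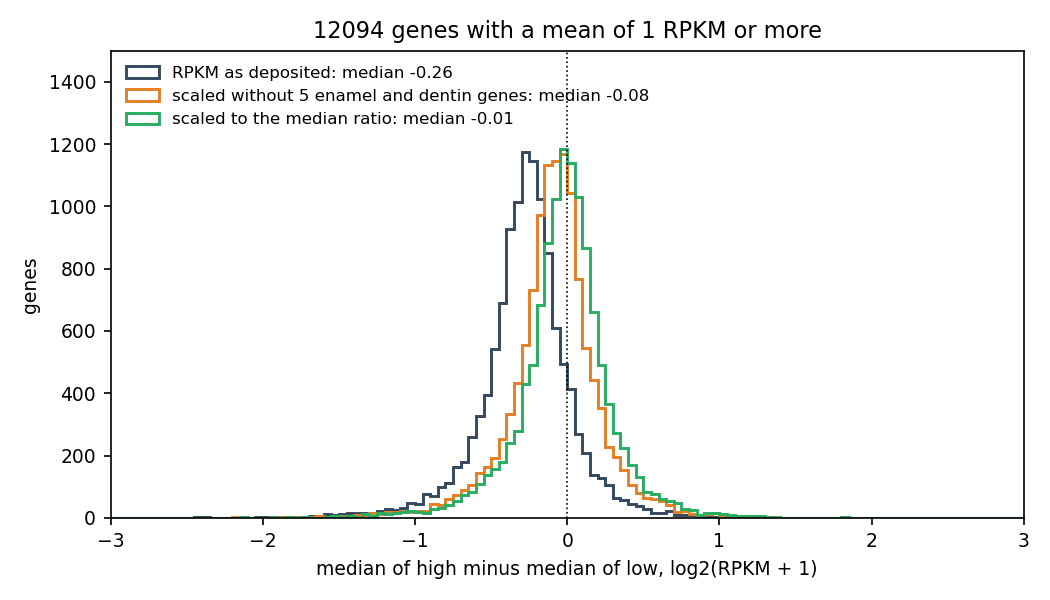
Number of genes (vertical axis) by difference between the medians of the high and low libraries (horizontal axis, log2(RPKM + 1)), for RPKM as deposited and under 2 rescalings. The deposited values centre at -0.26 and the rescaled ones at -0.08 and -0.01.

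Several features of the libraries moved with the sides. High libraries had 11014 to 11841 genes at 1 RPKM or more and low libraries 12391 to 12518, without overlap. That count puts a fixed limit on the deposited values, so the shift of all genes enters it. Depth, as estimated from the values, overlapped, at 70.2 to 90.4 M reads on the high side and 74.1 to 95.7 M on the low side. Of the libraries numbered 5 to 7, 4 were high and 1 low, and of those numbered 8 to 10, 1 was high and 3 low. Numbers in the column names repeat between these sets, but no label names a sequencing run or batch. Y-linked transcripts were present in 4 of 5 high and 1 of 4 low libraries. Null 8 (high) and null 9 (low) also held intestinal transcripts, as did heterozygous 8 and 9. The part of each of these in the differences was not tested, and values within them stand beside the results below.

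Nfic itself was lower in the null libraries, at 11.4 ± 3.02 RPKM (SD, n = 6) against 16.8 ± 4.42 (SD, n = 6), a difference of -0.52 (2-sided exact permutation p = 0.0303), but its transcripts were not absent. What the deletion removes from the transcript is not given in the sources used here. By side it measured 7.90 to 12.2 RPKM in the high and 11.7 to 24.5 in the low libraries. Amelx differed by 0.27 between genotypes (SE 0.343, adjusted p = 1 in limma, Benjamini-Hochberg over all genes), and limma called 0 of 12094 genes by genotype (percentage called 0), with 646 at an unadjusted p under 0.05. Amelx ran from 28240 to 106179 RPKM among heterozygous and from 40547 to 102366 among null libraries, so both genotypes covered most of the range.

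Of 16 secretory ameloblast genes measured, 6 were higher on the high side, 37.5% beside 1.64% of all genes, and 2 were lower, against 43.2%. Without Amelx, which chose the sides, 5 of 15 were higher and the list median was 0.51 above that of all genes. The list's median was 0.52 above that of all genes, and 14 of 16 members lay above the all-gene median. The 6 higher were Amelx, Ambn, Enam, Mmp20, Acp4 (listed as Acpt) and Fam20a, the last a pseudokinase of the secretory pathway. The list was built around Amelx, so its direction is not independent of the rule.

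Enam (chr5:88487975-88506049) measured 1925, 2073, 1755, 1751 and 1866 RPKM in heterozygous 5, null 6, null 8, null 7 and null 5, and 1398, 1440, 1254 and 890.4 in null 10, null 9, heterozygous 10 and heterozygous 6. Its difference of 0.49 was less than that of Amelx or Ambn. Mmp20 (chr9:7628231-7674979) measured 283, 261, 233, 203 and 199 RPKM in the same order of high libraries and 164, 150, 145 and 105 in the same order of low ones, a difference of 0.66. Acp4 (chr7:44252148-44257378, minus strand) measured 363, 408, 318, 276 and 276 RPKM against 199, 164, 163 and 111, a difference of 0.96. In Mmp20 and Acp4, heterozygous 6 was lowest, as it was for Amelx and Ambn. Fam20a ran from 46.5 to 64.5 RPKM in the high and from 29.3 to 36.2 in the low libraries.

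The other 10 members were not higher as deposited. Sp6, a transcription factor of dental epithelium, measured 252 to 339 RPKM in the high and 286 to 367 in the low libraries, with a difference of 0.00. Calb1, a calcium-binding protein of ameloblasts, ran from 386 to 496 RPKM and from 321 to 492, and Tuft1 from 2.85 to 4.38 and from 3.22 to 4.06, so both overlapped. Dlx3 and Cnnm4, a homeobox factor and a metal transporter whose human genes are mutated in enamel disorders, were lower on the high side, Dlx3 at 76.0 to 101 RPKM against 108 to 120 and Cnnm4 at 6.76 to 8.47 against 10.9 to 11.9. Under the median ratio Dlx3 overlapped and Cnnm4 was still lower, while Clu and Stim1 became higher. The named markers of the enamel layer were therefore not all higher in the libraries with most Amelx.

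Among 13 genes of the later, maturation stage, 1 was higher (7.69%, beside 1.64% of all genes) and 0 were lower, beside 43.2%. The higher gene was the bicarbonate transporter Slc4a4 (8.40 to 19.1 RPKM against 5.74 to 7.78), and 11 of 13 lay above the median of all genes. Odam, an enamel surface protein, varied widely between high libraries, with 270 RPKM in null 7, 125 in null 6, 72.2 in heterozygous 5, 38.6 in null 5 and 13.6 in null 8, against 12.6 to 31.1 RPKM in the low libraries. Amtn, amelotin, stood at 69.7 RPKM in heterozygous 5 but at 0.966 to 7.25 in the other 4 high libraries and 0.250 to 1.51 in the low ones. Klk4, the maturation protease, outside the naming rule, stood at 12.3 RPKM in heterozygous 5 and 13.2 in heterozygous 7 and at 1.86 to 5.68 in the other libraries. Heterozygous 5 thus carried the most Amelx and Amtn, and its Klk4 was matched by a library that was not on the high side.

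Over all genes, the 10 largest differences upward among genes whose sides did not overlap were those of Csn3, Ambn, Pgm5, Amelx, Kcnk12, Cldn1, Krt75, Npl, Chst1 and Acp4. Csn3, which encodes the milk protein kappa-casein, had the widest, at 2.50, from low levels. It measured 49.6 RPKM in heterozygous 5, 5.12 in null 6, 0.739 in null 8, 11.7 in null 7 and 0.469 in null 5, and 0.276, 0.0333, 0.0629 and 0.107 in the low libraries in the order given for Enam. The high libraries themselves spread widely in it, and null 5 lay close to null 10. Only 8 of the 198 higher genes differed by 1 or more on this scale.

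Cldn1, a tight junction protein of epithelia, measured 130, 221, 136, 163 and 148 RPKM in heterozygous 5, null 6, null 8, null 7 and null 5. It measured 92.4, 66.3, 68.1 and 75.1 RPKM in null 10, null 9, heterozygous 10 and heterozygous 6, a difference of 1.04. Unlike Amelx, it was highest in null 6 and lowest in null 9. Chst1, a sulfotransferase of keratan sulfate, measured 208, 248, 184, 174 and 149 RPKM on the high side and 112, 95.0, 90.2 and 62.0 on the low side, a difference of 0.99. Its libraries kept the order of the Amelx values on the low side. Krt75, a keratin of hair and enamel organ epithelium, ran from 4.30 to 8.42 RPKM against 2.86 to 3.90, the sialic acid enzyme Npl from 41.5 to 60.1 against 25.01 to 38.3, the potassium channel gene Kcnk12 from 1.69 to 4.53 against 0.982 to 1.51, and Pgm5 from 3.46 to 9.36 against 2.18 to 2.69.

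**Figure D3:**
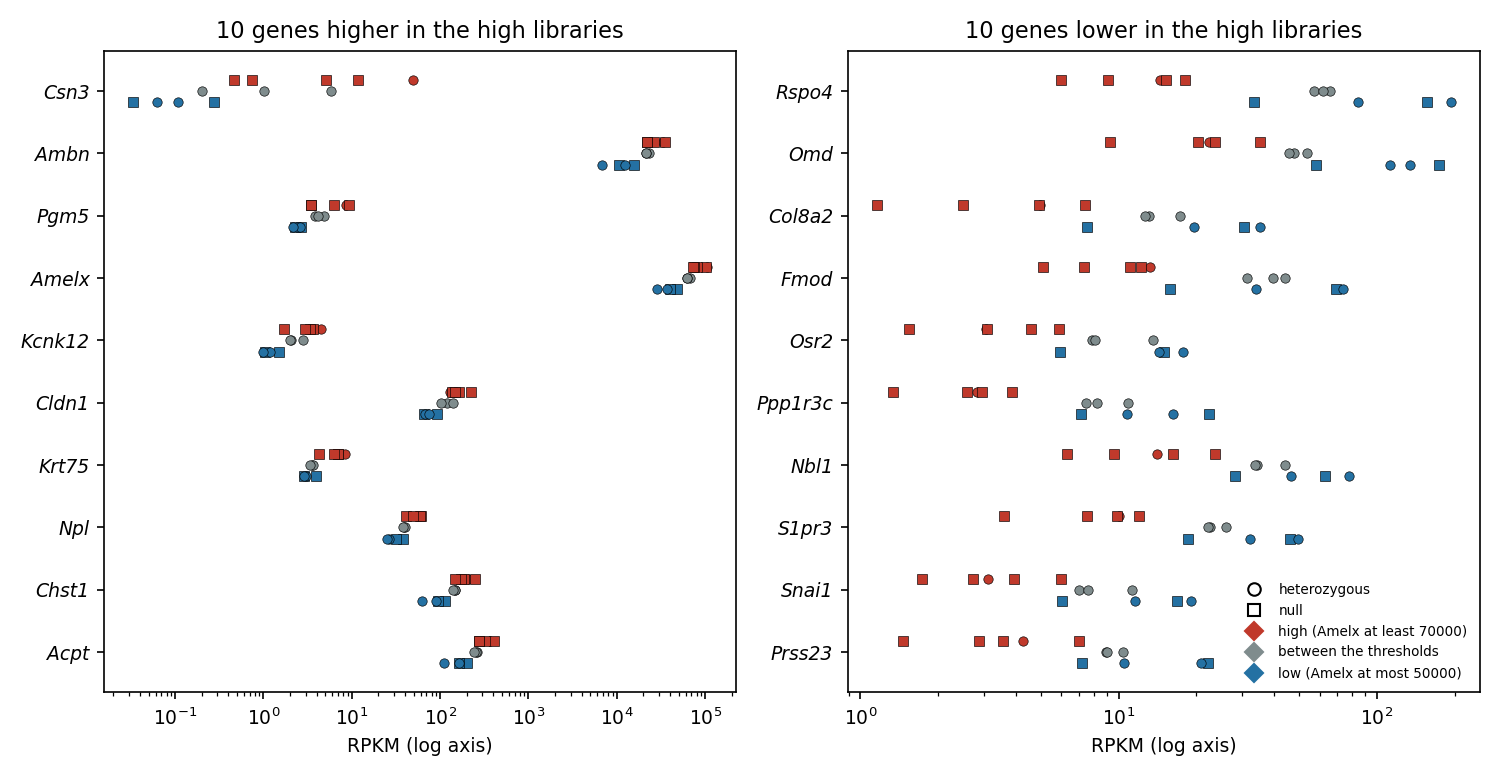
RPKM (log axis) of the 10 genes with the largest upward (left) and downward (right) difference between the sides, 1 point per library, coloured by side and shaped by genotype. The high and low points of a gene do not overlap because that is how the genes were counted. The 3 grey libraries lie between the points of the sides for Amelx, but inside the range of the low libraries for Rspo4, Fmod and S1pr3.

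The 3 libraries that the rule left out took an intermediate place in many genes. All 3 lay between the medians of the high and the low libraries for 124 of the 198 higher genes (62.6%), for 2689 of the 5219 lower genes (51.5%) and for 13.3% of the genes whose sides overlapped. These shares are a description, since genes counted as higher or lower have wider gaps by choice and the intermediate Amelx of the 3 libraries enters their totals. All 3 are heterozygous and carry Y-linked transcripts.

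Of 25 genes of dental epithelium, 4 were higher on the high side (1.64% of all genes were), 1 was lower (43.2% of all genes were), and 24 lay above the median of all genes, by a list median of 0.39. Among the 4 were Lamb3, which encodes a protein of the epithelial basement membrane, and the signalling gene Bmp4. Lamb3 ran from 167 to 233 RPKM in the high and from 109 to 138 in the low libraries, and Bmp4 from 31.3 to 48.9 against 25.8 to 31.3, where the sides all but met. Bmp4 is made in dental mesenchyme as well as in epithelium. Under the median ratio 12 of the 25 were higher, among them Krt14, Krt5 and Trp63, and 0 lower, beside 10.9% and 9.37% of all genes. Without the libraries numbered 8 and 9 the list stood at 0.64 instead of 0.39. Of 12 oral keratinocyte genes 1 was higher (8.33%, beside 1.64% of all genes), the keratin Krt10 (4.88 to 10.6 RPKM against 3.57 to 4.47). The keratin Krt1 overlapped, with a difference of -0.52, while 11 of the 12 lay above the median of all genes. The keratinocyte list stood 0.38 above all genes with a summed level of 52.8 to 185 RPKM on the high side and 47.6 to 98.9 on the low side. Its part in the epithelial differences was not tested.

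The 10 largest downward differences included several genes of connective tissue matrix. They were in Rspo4, a Wnt-enhancing R-spondin, Omd and Fmod, keratan sulfate proteoglycans, the collagen Col8a2, the mesenchymal transcription factors Osr2 and Snai1, Ppp1r3c, which targets a phosphatase to glycogen, Nbl1, a secreted BMP antagonist, the lipid receptor gene S1pr3 and the protease gene Prss23. Rspo4 measured 14.4, 6.00, 15.3, 18.1 and 9.12 RPKM in heterozygous 5, null 6, null 8, null 7 and null 5. It measured 157, 33.6, 194 and 84.4 RPKM in null 10, null 9, heterozygous 10 and heterozygous 6, a difference of -2.91, and 57.0 to 66.0 RPKM in the libraries between. Null 6 was the lowest library and null 9 the low library nearest to the high side.

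Omd measured 22.3, 9.29, 20.4, 35.4 and 23.6 RPKM on the high side and 175, 57.9, 113 and 134 on the low side, in the same orders, a difference of -2.41. Nbl1 measured 14.0, 6.31, 16.3, 23.7 and 9.63 RPKM against 63.0, 28.3, 78.2 and 46.3, a difference of -1.87. S1pr3 measured 10.05, 3.60, 9.88, 11.99 and 7.57 RPKM against 46.3, 18.5, 49.5 and 32.2, also -1.87. In each of these, null 6 was again lowest and null 9 nearest to the high side. Omd, Rspo4, Nbl1, S1pr3 and Ppp1r3c were lower under all scalings, whereas Col8a2, Fmod, Osr2, Snai1 and Prss23 overlapped once the values were rescaled.

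Mesenchymal genes were followed in a papilla and a follicle list. Of 16 papilla genes 10 were lower on the high side (62.5%, beside 43.2% of all genes) and 0 higher, with a list median of -0.47 relative to all genes. The transcription factor Prrx2 ran from 2.55 to 8.31 RPKM in the high and from 8.57 to 21.5 in the low libraries, but overlapped under both rescalings. Twist2, another mesenchymal factor, overlapped already as deposited, at 3.14 to 14.8 RPKM against 12.2 to 55.3. Under the median ratio 3 of the 16 were lower, beside 9.37% of all genes.

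Of 18 follicle and ligament genes 6 were lower (33.3%), a smaller share than the 43.2% of all genes, and 4 were lower under the median ratio, beside 9.37%, while 17 of 18 lay below the median of all genes and the list median was also -0.47 relative to all genes. Their summed level as deposited nevertheless did not overlap, at 322 to 692 RPKM in the high and 989 to 1320 in the low libraries. Fmod measured 5.08 to 13.3 RPKM against 15.8 to 74.0, Postn (periostin) 4.10 to 16.7 against 14.9 to 33.3 and Aspn (asporin) 1.86 to 8.94 against 5.43 to 38.3, of which only Fmod did not overlap. Of 28 collagens and collagen-modifying enzymes 11 were lower (39.3%), close to the share among all genes, and 3 under the median ratio, near the 9.37% of all genes. Among them, Col6a3 at 1.94 to 8.92 RPKM against 15.5 to 21.1 and Col12a1 at 2.05 to 9.08 against 14.5 to 30.9 were lower under all scalings.

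Odontoblast and dentin genes showed no such side. Of 28, 4 were lower (14.3%, below the 43.2% of all genes) and 0 were higher, beside 1.64%. Their median lay 0.09 above that of all genes, a value that turned to between -0.13 and 0.19 as single libraries were left out. Dspp, the main dentin matrix gene and the check of the labelled tissue, measured 292 to 716 RPKM in the high and 370 to 602 in the low libraries. The 4 lower genes were Omd, Panx3, Sp7 and Runx2, of which the last 2 encode transcription factors of mineralising mesenchyme, and Runx2 also stood in the papilla list. Panx3, a channel protein of bone and dentin cells, measured 2.79 to 6.45 RPKM against 9.44 to 16.7.

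Proliferation genes were lower on the high side almost without exception. Of 25 genes of G1 and S phase 24 were lower, and of 28 genes of G2 and mitosis 27 were lower, 96.4% beside 43.2% of all genes. No member of either list lay above the median of all genes, and the list medians were -0.38 and -0.49 relative to it. Under the median ratio 20 of 25 and 22 of 28 were lower, beside 9.37% of all genes. Their levels are low in every library, so a pseudocount of 5 RPKM brought the G2 and mitosis median to -0.19 and one of 0.1 RPKM to -0.74.

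The cyclin gene Ccnd1 measured 16.8, 17.2, 23.05, 20.03 and 22.9 RPKM in heterozygous 5, null 6, null 8, null 7 and null 5, and 37.7, 32.2, 46.0 and 45.4 in null 10, null 9, heterozygous 10 and heterozygous 6. Its difference was -1.01. Ccnb2, a mitotic cyclin, measured 3.84, 3.39, 4.45, 5.02 and 4.69 RPKM against 9.98, 7.51, 12.3 and 11.3 in the same orders, a difference of -1.09. For Ccnb2 the 3 libraries between the limits lay at 5.78, 5.93 and 5.91 RPKM, above every high and below every low library. The helicase subunits Mcm5 and Mcm3 ran from 2.77 to 4.75 and from 2.36 to 4.22 RPKM on the high side and from 6.26 to 9.18 and from 5.91 to 10.2 on the low side. The summed level of the G2 and mitosis list was 44.7 to 63.9 RPKM in the high and 92.9 to 156 in the low libraries.

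**Figure D4:**
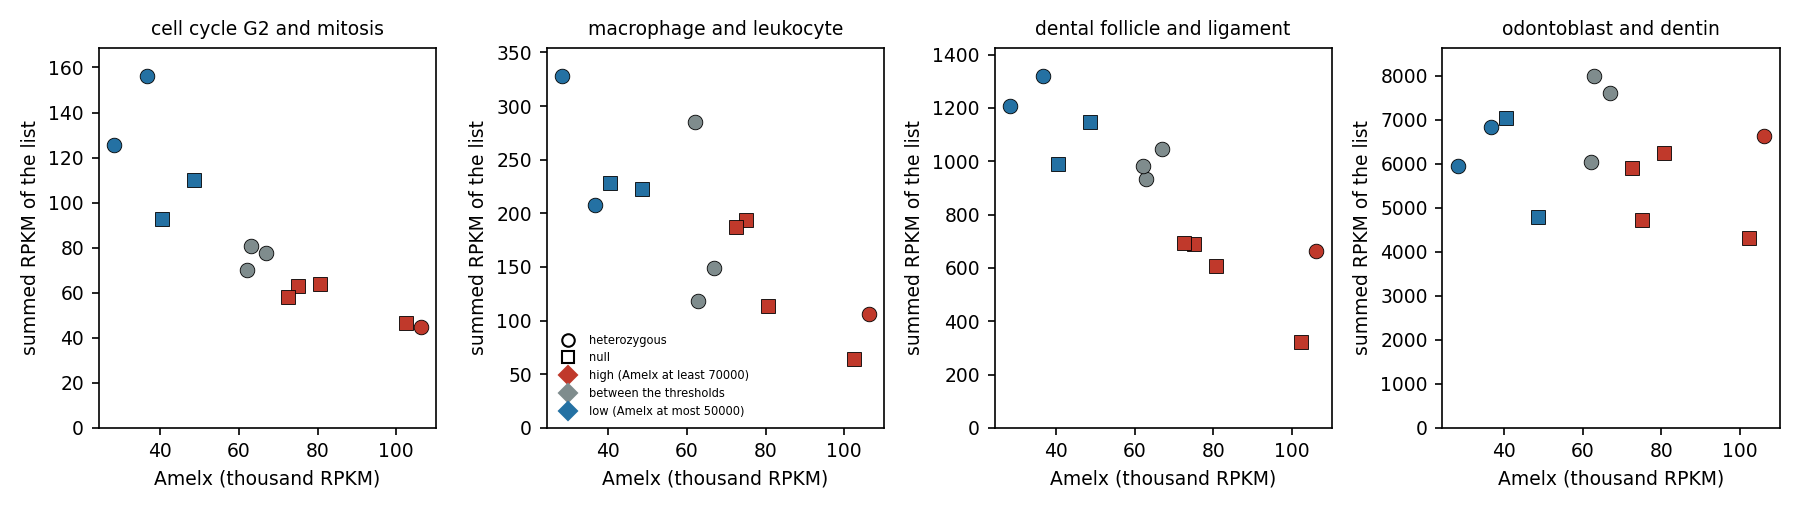
Summed RPKM, as deposited, of 4 gene lists (vertical axes, from 0) against Amelx (horizontal axes, RPKM as labelled), 1 point per library. The G2 and mitosis sums are 44.7 to 63.9 in the high and 92.9 to 156 in the low libraries, whereas the odontoblast sums overlap, at 4310 to 6630 and 4777 to 7037.

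Markers of other cell types in the piece were followed in the same way. Of 15 macrophage and leukocyte genes 11 were lower on the high side (73.3%, beside 43.2%), all 15 lay below the median of all genes, and the list median was -0.77 relative to it, the lowest of the lists described. Under the median ratio the count was also 11, beside 9.37%. The summed level as deposited was 64.6 to 194 RPKM in the high and 208 to 328 in the low libraries. Summed levels of lists were not rescaled anywhere here, so the shift of all genes enters them. The complement genes C1qb (4.02 to 10.8 against 14.1 to 22.9 RPKM) and C1qc (2.02 to 5.53 against 7.37 to 13.7) and the mannose receptor gene Mrc1 (0.700 to 2.39 against 3.66 to 8.78) did not overlap.

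Of 8 pericyte and smooth muscle genes 4 were lower as deposited (near the 43.2% of all genes) and 1 under the median ratio (beside 9.37% of all genes). The list median was -0.50 relative to all genes, and the summed level as deposited was 26.6 to 75.6 RPKM against 83.0 to 123. The potassium channel gene Kcnj8 measured 2.27 to 6.97 RPKM in the high and 7.42 to 32.7 in the low libraries, but overlapped under both rescalings. Of 14 endothelial genes 2 were lower (14.3%, below the share of all genes) and the median stood at -0.22 relative to all genes, or at 0.02 in the libraries with Y-linked transcripts alone. Bone and osteoclast genes had 1 of 9 lower, the osteoclast protease Ctsk (8.33 to 46.1 against 49.4 to 57.9 RPKM), which overlapped under the median ratio. Cartilage genes had 1 of 7 lower. Red blood cell genes had 1 of 9 lower. The shares lower in the bone, cartilage and red blood cell lists (11.1%, 14.3% and 11.1%) all lay below the 43.2% of all genes. Muscle, nerve and intestinal genes had 0 counted in either direction out of 3, 6 and 12. Among the high and low libraries, the muscle values were high in null 9 alone and Lgals4 in null 8 and null 9. Mitochondrially encoded and salivary genes had no member at 1 RPKM or more.

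Genes of protein synthesis and energy did not share 1 direction. Of 30 cytosolic ribosomal protein genes 17 were lower as deposited (56.7%, beside 43.2% of all genes) but 2 under the median ratio (beside 9.37%), with a median of -0.09 relative to all genes, and Rpl22 ran from 33.8 to 47.1 RPKM against 57.8 to 69.7. Of 29 genes of folding and secretion in the endoplasmic reticulum 4 were lower as deposited (13.8%, beside 43.2% of all genes). Under the median ratio 4 were higher, near the 10.9% of all genes, and 0 lower, beside 9.37%. The list median was 0.06 above that of all genes. The chaperone gene Hsp90b1 measured 73.3 to 112 RPKM in the high and 126 to 143 in the low libraries, and overlapped under both rescalings. Of 29 oxidative phosphorylation genes 1 was higher and 4 were lower as deposited, beside 1.64% and 43.2% of all genes, and 26 lay above the median of all genes. Under the median ratio 16 were higher and 0 lower, beside 10.9% and 9.37%. Ndufa1, a subunit of complex I, measured 145 to 178 RPKM against 104 to 132. Ndufb3, another complex I subunit gene, was lower as deposited, at -0.28, and differed by 0.05 under the median ratio.

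Signalling lists tied to root formation were mixed. Of 18 Hedgehog pathway genes 6 were lower (33.3%, less than the 43.2% of all genes), and the median was -0.10 relative to all genes. Osr2 measured 1.55 to 5.86 RPKM in the high and 5.91 to 17.8 in the low libraries, and Foxf2 and Sfrp1 overlapped. Of 21 Wnt inhibitors and targets 10 were lower as deposited (47.6%, near the 43.2% of all genes) and 2 under the median ratio (beside 9.37%), with a median of -0.33 relative to all genes, but of 0.01 within the libraries numbered 8 to 10. The secreted Wnt inhibitors Wif1 (58.0 to 101 against 123 to 219 RPKM) and Frzb (1.03 to 4.09 against 4.14 to 11.7) were lower as deposited and overlapped under the median ratio. The 3 measured nuclear factor I genes Nfic, Nfix and Nfib all overlapped.

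The order of the lists was then compared within subsets, where 1 or 2 libraries often stand for a side and counts of genes rise because fewer values must be parted. Within the null libraries (4 against 2) the secretory ameloblast list stood at 0.50 relative to all genes, the G2 and mitosis list at -0.28 and the macrophage list at -0.71. Within the heterozygous libraries (1 against 2) the values were 0.56, -0.73 and -0.67. Libraries numbered 5 to 7 (4 against 1) gave 0.36, -0.58 and -0.77, and those numbered 8 to 10 (1 against 3) 0.55, -0.35 and -0.83. These subsets keep the sides that Amelx set, and 3 of the 4 have 1 library on a side, so they are values and no test of genotype or number.

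The same lists were compared by Y-linked transcripts. Among libraries that held them (4 against 1) the ameloblast list stood at 0.34 relative to all genes, the G2 and mitosis list at -0.18, the papilla list at -0.22 and the follicle list at -0.16. Among those without them, which set null 6 alone against 3 libraries, the values were 0.73, -0.67, -1.18 and -1.37. The odontoblast list turned from 0.09 to -0.39 in the second subset. Null 6 had the lowest summed level of papilla, follicle, pericyte and macrophage genes of all 12 libraries. Null 6 and null 9 were the only high library without and the only low library with Y-linked transcripts.

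**Figure D5:**
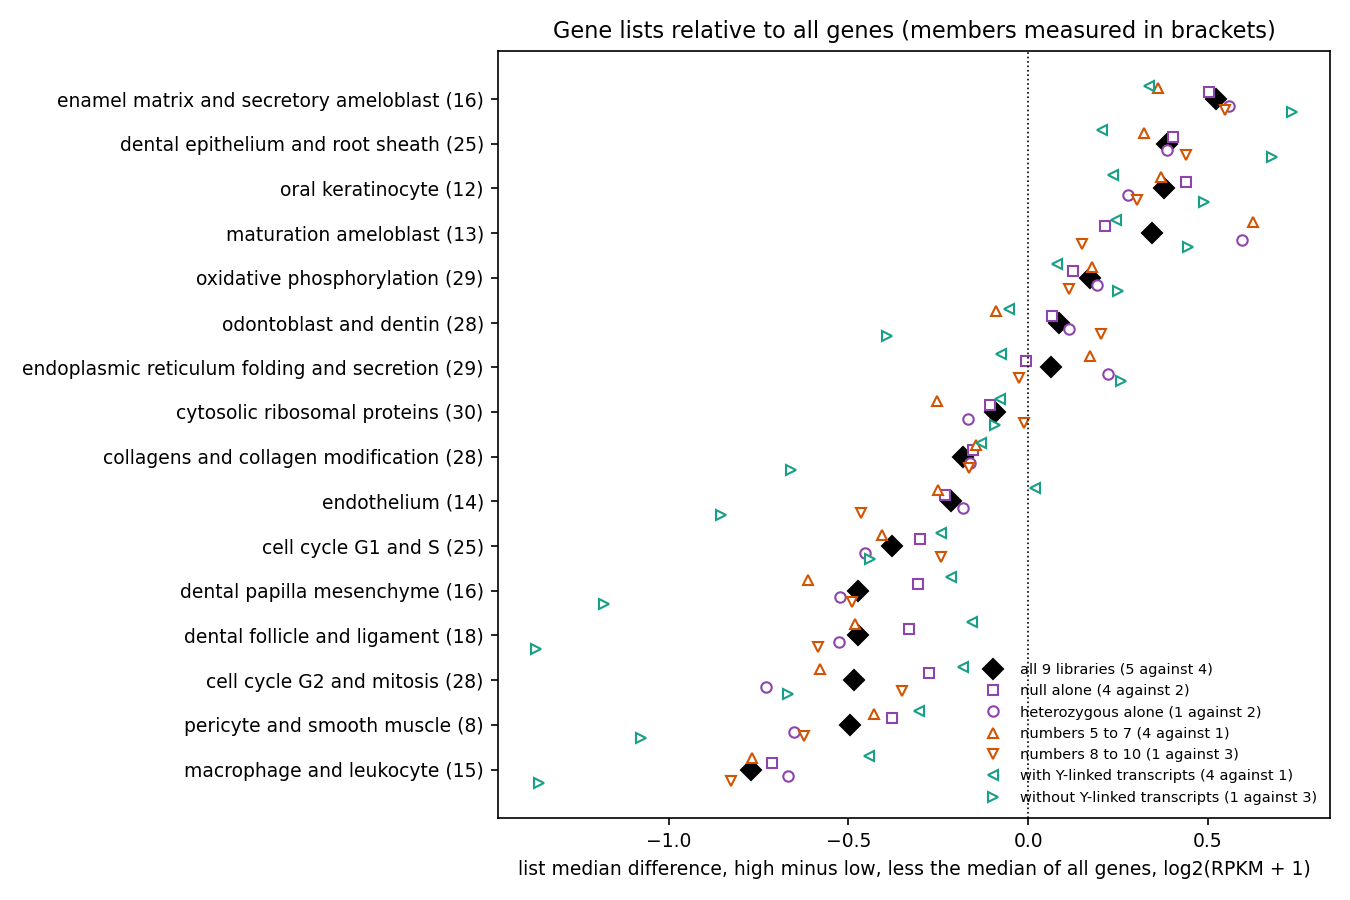
Median difference between the sides of each gene list less that of all genes (horizontal axis, log2(RPKM + 1)), for all 9 libraries (diamonds) and within 6 subsets of them (open symbols, number of high against low libraries in the key). The secretory and maturation ameloblast, dental epithelium, oral keratinocyte and oxidative phosphorylation lists lie right of 0 in every subset. Both cell cycle lists and the macrophage, papilla, follicle, pericyte, collagen and ribosomal lists lie left of 0 in every subset. The odontoblast, endoplasmic reticulum and endothelium lists lie on both sides of 0.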

How the data were processed

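The deposited table gives 25899 genes in 12 libraries as log2 values of RPKM, from -11.1 to 16.7. TopHat2 and the mm10 build are named in the submitters' processing notes, while the sources used here do not give the version, the counter or the gene models. That the authors used base 2 was read from the values, since base 2, summed over gene length, accounted for a share of the reads between 0.773 and 0.835 and base e for an impossible 8.23 to 28.4. Genes without reads carry 0.9 reads. Of 11017 values under 20 reads, 98.5% were whole within 0.02 reads. Depths of 70.2 to 96.4 M reads were estimated from the genes without reads in any library. These estimates rest on exon lengths of GENCODE M21, which may differ from the unstated gene models. At such depths 1 read matters little for the genes named. Identifiers matched GENCODE M21 for 24987 genes, whose coordinates are printed, and not for 912.

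Values were turned back to RPKM and compared as log2(RPKM + 1) over genes averaging at least 1 RPKM, in Python 3.11.15 with numpy 2.4.6 and pandas 2.3.3. A gene counted as higher or lower where the 5 high and 4 low libraries did not overlap, and its difference is that of the medians. The sides, the members and the lists were chosen with earlier results of these data known. Lists are given less the median of all genes. Genotype was fitted on all 12 libraries with the trend option of limma 3.58.1 (R 4.3.3), and Nfic by exact permutation. Nothing states that same-group libraries came from separate litters, so p-values measure the spread between these libraries. The genes named were Nfic, Amelx and Ambn, the ameloblast list, the 10 largest differences in each direction without predicted genes, and the 3 largest of each list. Klk4, Dspp, Sp7, Runx2, Krt14, Krt5 and Trp63 were named after their values had been seen. Some genes that the rule names are not reported here. Both procedures were tested on simulated data. Alternatives were other pseudocounts, filters, scalings and limits, Ambn as the dividing gene, single libraries left out, and subsets by genotype, number and, added after the values were seen, Y-linked transcripts and intestinal transcripts.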

Additional observations from a re-analysis of the deposited data

Results flagged for a closer look

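In the 110 genes looked at, 17 of 220 sides held a library far from the others, with a gap to its neighbour that took up more of the side's range than chance gives in about 1 of 20 sides. The sex-linked genes account for 6. Null 6 had 5.17 RPKM of Xist, 0.00307 of Ddx3y and 0.00308 of Eif2s3y, unlike the other high libraries, and null 9 had 0.280 RPKM of Xist, 9.05 of Ddx3y and 6.70 of Eif2s3y, unlike the other low ones. The values of null 6 and null 9 are thus the reverse of their sides.

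Null 9 stood apart in 3 muscle genes, with 14.6 RPKM of Acta1, 7.78 of Tnnc2 and 12.6 of Mylpf, where no other low library passed 1.69, 0.779 and 1.62. The intestinal gene Lgals4 reached 7.26 RPKM in null 8 and 9.21 in null 9, against at most 0.315 in the other high and low libraries, and Anpep reached 20.1 RPKM in null 8. Null 9 also had the lowest Hlf of its side, 0.699 RPKM, whereas null 7 had the highest of the high side, 1.32 RPKM.

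Null 7 had 5.59 RPKM of the keratin Krt1, with 1.35 in the next high library, and heterozygous 10 had the lowest Krt1 of the low side at 1.13 RPKM. Foxf2 was lowest on the high side in null 6, at 1.67 RPKM against 6.34 in the next library.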

How the results depend on the processing

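The count of higher genes, 198, and of lower genes, 5219, moved by over 1.5 times in 12 and 10 of 25 settings each. Requiring a difference of 1 left 8 and 215. Scaling without the 5 enamel and dentin genes gave 806 and 1759, and to the median ratio 1320 and 1133. Subsets, in which fewer values must be parted, gave 468 higher genes in null libraries, 881 and 10265 in heterozygous ones, 762 and 8732 in numbers 5 to 7, 1186 and 8520 in numbers 8 to 10, 473 and 8265 with Y-linked transcripts, and 1067 and 9204 without. With Ambn as the dividing gene 125 genes were higher, with all libraries parted at 60000 RPKM 82 were higher and 3255 lower, without the libraries numbered 8 and 9 369 were higher, and with a filter at 5 RPKM 2754 were lower. As single libraries were left out the counts were 206 to 274 and 5273 to 6093.

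With a pseudocount of 0.1 RPKM, the lists that moved stood at G1 and S -0.67, G2 and mitosis -0.74 and sex linked 5.19. With a pseudocount of 5 RPKM, the lists that moved stood at secretory ameloblast 0.35, cartilage -0.14, G1 and S -0.13, G2 and mitosis -0.19, ribosomal -0.18, oxidative phosphorylation 0.071, Wnt -0.11 and sex linked 0.81. Within the null libraries, the lists that moved stood at stratum intermedium 0.14, G2 and mitosis -0.28, red cell -0.80 and sex linked 1.16 and those that changed sign at muscle -0.92 and intestine -1.44. Within the heterozygous ones, the lists that moved stood at maturation 0.59, cartilage -0.67, G2 and mitosis -0.73, secretion 0.22, Hedgehog -0.28 and nuclear factor I -0.45. Within numbers 5 to 7, the lists that moved stood at secretory ameloblast 0.36, maturation 0.62 and ribosomal -0.25 and those that changed sign at stratum intermedium -0.062, nerve -0.16 and clock -0.16. Within numbers 8 to 10, the lists that moved stood at maturation 0.15, G1 and S -0.24, oxidative phosphorylation 0.11, nerve 0.29, intestine 3.15 and clock 0.24 and those that changed sign at Wnt 0.0084. With Y-linked transcripts alone, the lists that moved stood at secretory ameloblast 0.34, epithelium 0.21, G1 and S -0.24, G2 and mitosis -0.18, oxidative phosphorylation 0.080, nuclear factor I -0.071, Wnt -0.050, red cell -0.81, macrophage -0.44 and sex linked 0.16 and those that changed sign at cartilage 0.068, secretion -0.075, Hedgehog 0.053, muscle -2.14, nerve -0.13 and intestine -3.03. Without Y-linked transcripts, the lists that moved stood at secretory ameloblast 0.73, epithelium 0.68, papilla -1.18, follicle -1.37, cartilage -0.68, collagen -0.66, secretion 0.26, oxidative phosphorylation 0.25, Hedgehog -0.36, nuclear factor I -0.59, Wnt -0.78, endothelium -0.85, pericyte -1.08, red cell -0.74, macrophage -1.36 and sex linked 0.33 and those that changed sign at odontoblast -0.39. With all libraries parted at 60000 RPKM, the lists that moved stood at secretory ameloblast 0.38. Without the libraries numbered 8 and 9, the lists that moved stood at stratum intermedium 0.17, epithelium 0.64, oxidative phosphorylation 0.26 and nuclear factor I -0.45. As single libraries were left out, the secretory ameloblast list stood at 0.41 to 0.64, the epithelium list at 0.28 to 0.60, the nuclear factor I list at -0.47 to -0.24, the immediate early list at 0.027 to 0.18 and the stratum intermedium list at -0.11 to 0.088, with -0.076 without null 10 and -0.11 without heterozygous 10. In the remaining 556 list values each list moved by less than its spread within sides, and sign changes among those values are not listed above. Within the heterozygous libraries, for example, red cell stood at 0.24, nerve at -0.12 and clock at -0.039. Odontoblast stood at -0.090 within numbers 5 to 7 and red cell at 0.20 within numbers 8 to 10. The cause of these shifts was not tested. Ndufb3 changed sign to 0.050 when scaled to the median ratio.

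For Nfic the genotype difference was -0.63 to -0.41 as single libraries were left out, and the exact permutation p passed 0.05 without null 5 (0.0541), heterozygous 6 (0.0519), null 6 (0.0541) or heterozygous 10 (0.0628). With the library number as a replicate block, an exact sign-flip test gave -0.52 and p = 0.03125, and limma called 0 genes with and without the block, 981 against 646 at an unadjusted p under 0.05. After the mean of each gene within its genotype was subtracted, same-numbered libraries correlated at 0.492, 0.00502, 0.310, 0.667, 0.688 and 0.802 for numbers 5 to 10. These values describe departures from the genotype means and not whole profiles. On the same values, each library was compared with the 6 of the other genotype. In 8 of 12 libraries the closest of those 6 had the same number. Limma also called 0 genes under the other alternatives, 1960 at an unadjusted p under 0.05 with Amelx as a covariate. With 1 or 2 libraries on a side, the subsets have no replicate check.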

Other observations

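The 5 genes below lie near each other on chromosome 5, which was noted after their values had been seen and was not tested. In mm10 Odam starts at 87885029, Csn3 at 87925579, Amtn at 88376108, Ambn at 88455991 and Enam at 88487975, all on the plus strand. Csn3, Ambn and Enam did not overlap between the sides, while Odam and Amtn did, with differences of 1.81 and 2.37. Amelx, on the X chromosome, lies apart from them. The highest values of Csn3 and Amtn were both in heterozygous 5, at 49.6 and 69.7 RPKM, and the highest of Odam in null 7, at 270 RPKM.

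Of 13 stratum intermedium genes, which mark the cells beneath the ameloblasts, 1 was lower on the high side (7.69%, beside 43.2% of all genes). It was the claudin gene Cldn10 (6.82 to 9.92 RPKM against 10.9 to 16.6), which overlapped under the median ratio. Under that scaling 3 of the 13 were higher and 0 lower, beside 10.9% and 9.37% of all genes. The list stood at 0.03 relative to all genes as deposited. Tgfbi, in the same list, had the largest difference, -1.90, but overlapped, at 9.88 to 37.4 RPKM against 19.4 to 96.8. Of 12 clock genes 2 were lower (16.7%, beside 43.2% of all genes), and of 13 immediate early and heat shock genes 1 was (7.69%). That gene, Dnajb1, named after its values were seen, was lower on the high side as deposited and higher under the median ratio.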
